A study of Mus musculus with 6 samples.

Results

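The genes described here encode the machinery by which the endoplasmic reticulum (ER) takes in, folds, glycosylates, checks and exports proteins, measured in the luminal epithelium of the mouse uterus. They are 57 named genes out of 24964 in the table, taken by gene symbol from a fixed list, and all 57 were found. The list had been drawn up with results of the same comparison in view. Its direction of change below is therefore a description and carries no test. By the step they serve, 11 belong to the translocon and its targeting factors, 5 to signal peptidase, 8 to glycosylation, 17 to the chaperones, 6 to ER-associated degradation (ERAD), 4 to the COPII coat and 6 to the COPI coat and retrieval receptors.

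The tissue was luminal epithelium, which faces the uterine cavity, isolated by laser capture on pregnancy day 4 and profiled by RNA-seq. The 3 Foxo1dd samples came from Pgrcre/+ Foxo1f/f females, which carry floxed alleles of the transcription factor gene Foxo1 together with 1 copy of Cre at Pgr, the progesterone receptor gene. The 3 Foxo1ff samples came from Foxo1f/f females, which carry the same floxed alleles without Cre. All females were housed until 8 weeks of age and mated with stud males. Because Cre sits at Pgr, recombination takes place in any cell type that expresses the receptor, and the genotypes also differ by 1 Pgr allele. Samples within a genotype are labelled as bioreplicates, with no animal named for any of them, so the spread between these samples may in part be technical. Every standard error (SE) below is the moderated one of the limma fit. It draws the spread of each gene between these samples toward a trend fitted over all tested genes. For a gene with little spread it can therefore be larger than the samples alone would give.

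A secreted or membrane protein enters the ER through the Sec61 channel while it is being made, loses its signal peptide to signal peptidase and receives its N-linked glycan from oligosaccharyltransferase. Chaperones of the HSP70 and HSP90 families, the lectins calnexin and calreticulin, and the protein disulfide isomerases then fold it, ERAD removes what fails, COPII vesicles carry the product to the Golgi and COPI vesicles bring escaped ER residents back. Secretory cells carry much of this machinery, and the unfolded protein response raises many of its genes through the transcription factors XBP1 and ATF6. The luminal epithelium of early pregnancy secretes into the uterine lumen.

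RNA for most of this machinery was lower in Foxo1dd epithelium. Of the 57 genes, 52 fell, 1 rose (Sec23b, a COPII coat subunit) and 4 were not called (Srp14, Sec24d, Sar1b and Copb1). Summed over the 57 genes, the level was 5604 ± 591 FPKM in Foxo1dd samples and 14573 ± 1982 FPKM in Foxo1ff samples (SD, n = 3 each), so that Foxo1dd epithelium kept 38.5% of the Foxo1ff level. FPKM is an expression level per length of gene and per library depth. The same sum took 1.00 ± 0.10% of all FPKM in Foxo1dd samples and 2.28 ± 0.40% in Foxo1ff samples (SD, n = 3 each). In bulk RNA of this kind, fewer cells of a type and less RNA per cell cannot be told apart.

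A gene counts as called, and as having risen or fallen, at a Benjamini-Hochberg adjusted p under 0.05 in limma over the 11427 genes that averaged at least 1 FPKM in the 6 samples. All 57 genes passed that minimum, the lowest of them, Kdelr3, with a mean of 15.6 FPKM. Over all 11427 tested genes, 34.2% were called lower and 22.2% higher, which is 56.4% in either direction. Because the list was drawn up on this comparison, nothing is read from its count against that background. All 3 Foxo1dd samples lay below all 3 Foxo1ff samples for 51 of the 57 genes and above them for 2, against 39% and 25.3% of tested genes. In sum, 64.2% of tested genes had groups that did not overlap, and 53 of the 57 did. The log2 change, which is the Foxo1dd mean less the Foxo1ff mean of log2(FPKM + 1) throughout, had a median of -1.30 over the 57 genes and -0.15 over all tested genes. It was under -1 with a call for 39 of the 57 genes and under -2 for 12, where 15.8% and 5.06% of tested genes were called that far down. Median-of-ratios scaling, which rescales each library by its median ratio to the others, moved the median of all genes up by 0.12 and gave 48 lower and 3 higher calls among the 57, against 30% lower and 26.9% higher of all tested genes.

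**Figure D1:**
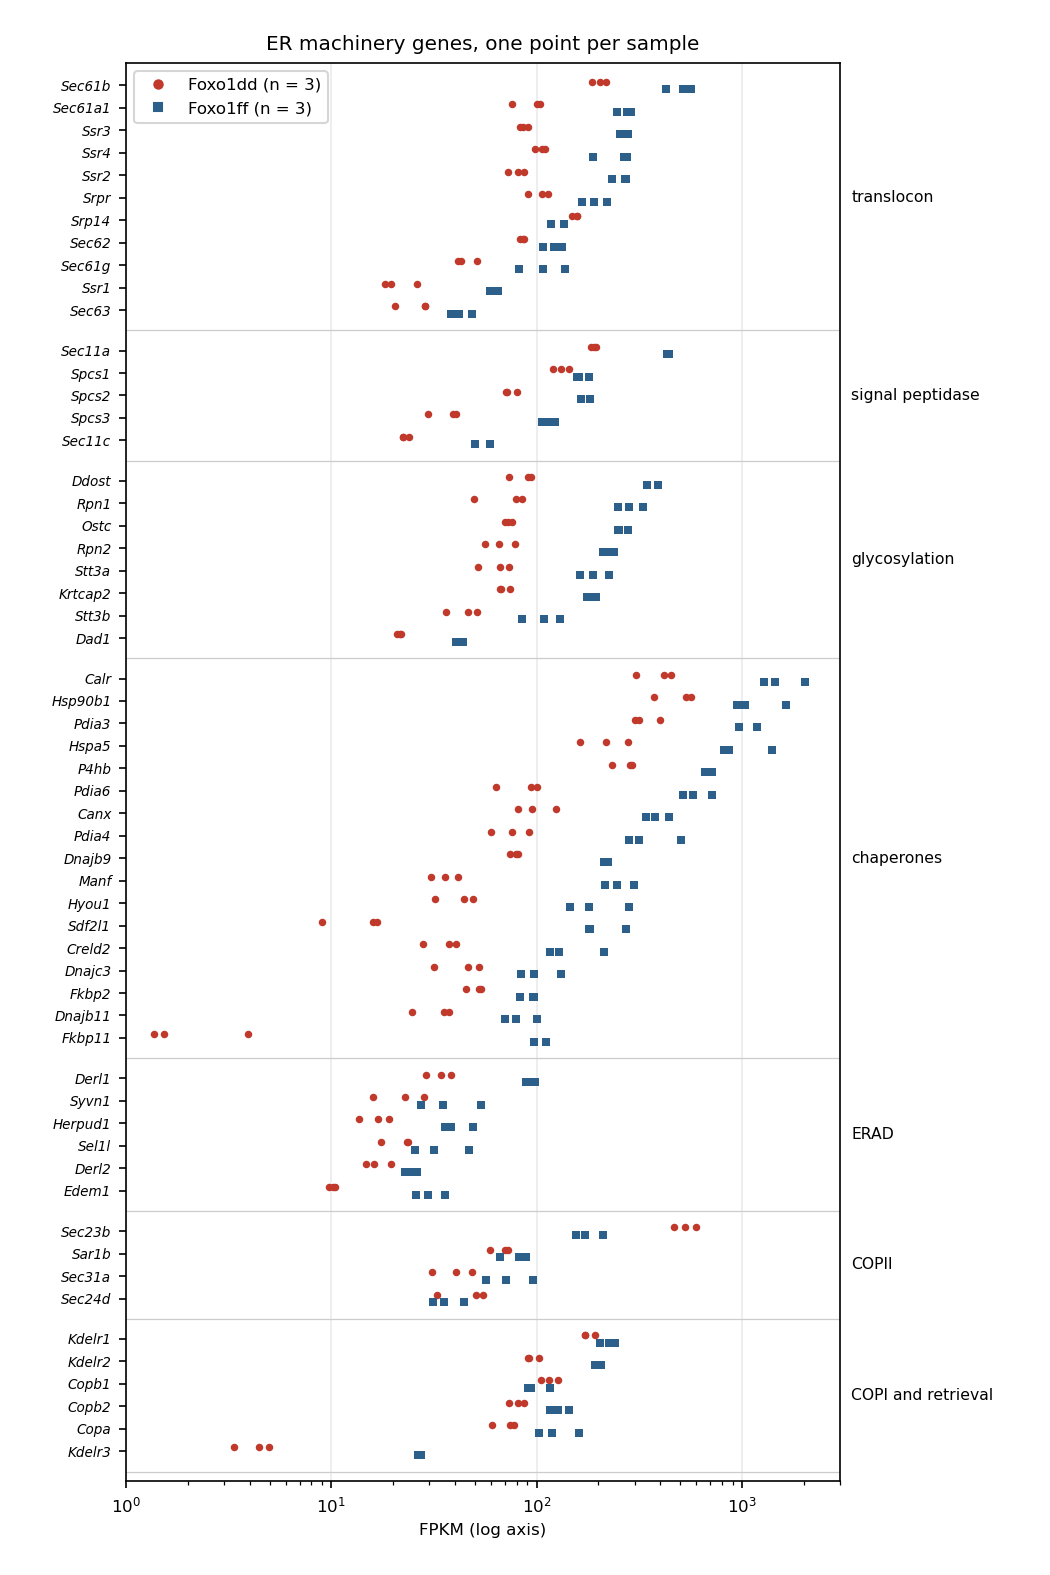
FPKM of the 57 genes in each sample on a log axis, 1 row per gene, grouped by step and ordered by mean level, with Foxo1dd samples as red circles and Foxo1ff samples as blue squares (n = 3 each). The 3 Foxo1dd samples lie left of the 3 Foxo1ff samples for 51 genes, right of them for Sec23b and Srp14, and among them for Syvn1, Sec24d, Sar1b and Copb1.

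The deletion itself was visible in every library. Foxo1 had 1.72, 0.942 and 1.22 FPKM in Foxo1dd samples, against 160.0, 119 and 111 FPKM in Foxo1ff samples. Pgr had 36.2, 29.9 and 28.3 FPKM in Foxo1dd samples, against 2.44, 1.64 and 2.02 FPKM in Foxo1ff samples, a log2 change of 3.42 ± 0.16 (SE, as after every log2 change below). Summed FPKM per library was 552190 to 564628 in Foxo1dd samples and 613186 to 667499 in Foxo1ff samples. Foxo1dd sample 2 listed 13995 genes above 0, the fewest, where the other 5 libraries listed 15474 to 16062. Of the 57 genes, 6 share chromosome 9 with Pgr, and the nearest, Srpr, lies 26.2 Mb away.

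At the translocon, 10 of 11 genes fell and 1 was not called, with a median log2 change of -1.23 and a range of -1.67 to 0.25. The listed genes of the Sec61 channel and of the translocon-associated protein (TRAP) complex beside it were all among the 10. Sec61a2, a paralogue of Sec61a1 outside the list, was not called, with a log2 change of -0.26 ± 0.16. Sec61b, a small subunit of the channel and the most abundant gene of this step, had 185, 217 and 203 FPKM in Foxo1dd samples, against 426, 513 and 563 FPKM in Foxo1ff samples. Sec61a1, which forms the pore, had 100.3, 75.8 and 104 FPKM in Foxo1dd samples, against 288, 276 and 247 FPKM in Foxo1ff samples. Every Foxo1dd value of both genes was under every Foxo1ff value, and their log2 changes were -1.30 ± 0.14 and -1.53 ± 0.14. The third channel subunit, Sec61g, fell with a log2 change of -1.23 ± 0.19.

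The 4 TRAP subunits, which bind beside the channel and help some signal sequences to insert, kept 31.2% to 43.0% of their Foxo1ff level. Ssr2 had 86.9, 72.8 and 81.4 FPKM in Foxo1dd samples, against 272, 268 and 233 FPKM in Foxo1ff samples, the largest log2 change of this step at -1.67 ± 0.12. Ssr3 had 91.1, 82.6 and 85.5 FPKM in Foxo1dd samples, against 275, 278 and 256 FPKM in Foxo1ff samples. Both sets of values are separated by a wide gap, with little spread inside either genotype. Sec62 and Sec63, which serve proteins that reach the channel after translation, had smaller log2 changes, -0.48 ± 0.12 and -0.72 ± 0.16. Srpr, a subunit of the receptor that docks the signal recognition particle, fell with a log2 change of -0.88 ± 0.14. Srp14, an RNA-binding subunit of that particle, was not called, at 154 ± 4.95 FPKM in Foxo1dd samples and 129 ± 10.1 FPKM in Foxo1ff samples (SD, n = 3 each), although all 3 Foxo1dd values were the higher ones. It was called higher under median-of-ratios scaling and quantile normalization, with log2 changes of 0.38 and 0.42.

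Over all tested genes, 34.2% were called lower and 22.2% higher, which is the background for counts of genes outside the 57, here and in later steps. A further 23 tested genes of targeting and insertion that are outside the 57 gave 12 lower and 3 higher calls, with a median log2 change of -0.29. The largest was Wrb, a receptor for tail-anchored proteins, at 8.13 ± 0.329 FPKM in Foxo1dd samples and 28.7 ± 1.86 FPKM in Foxo1ff samples (SD), a log2 change of -1.70 ± 0.12 with a limma Benjamini-Hochberg adjusted p of 6.48e-06. Srp9, the partner of Srp14 in the particle, had a log2 change of -0.96 ± 0.26 (adjusted p = 0.0107). Emc7, of the ER membrane protein complex, had one of -0.92 ± 0.19 (adjusted p = 0.00275). Srp9 and Srp14 thus stood on opposite sides of 0, and the difference between them was not tested.

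All 5 genes of signal peptidase, the enzyme that cuts off the signal peptide, fell, with a median log2 change of -1.19. Sec11a, the more abundant of its catalytic subunits, had 191, 183 and 195 FPKM in Foxo1dd samples, against 430.0, 441 and 434 FPKM in Foxo1ff samples. The samples of each genotype lay within a few per cent of one another, so the gap between genotypes was many times the spread. Sec11c, the other catalytic subunit, had 22.3, 23.8 and 22.4 FPKM in Foxo1dd samples, against 49.8, 59.2 and 59.4 FPKM in Foxo1ff samples. The proportion of the pair overlapped between genotypes, Sec11a making up 89.2 ± 0.64% of their summed FPKM in Foxo1dd samples and 88.6 ± 0.90% in Foxo1ff samples (SD, n = 3 each).

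Among the accessory subunits, Spcs3 had 40.6, 29.7 and 38.9 FPKM in Foxo1dd samples, against 123, 113 and 106 FPKM in Foxo1ff samples, a log2 change of -1.63 ± 0.14. Spcs2 had 79.8, 71.6 and 71.2 FPKM in Foxo1dd samples, against 182, 165 and 164 FPKM in Foxo1ff samples, a log2 change of -1.19 ± 0.11. Spcs1 changed least, with 132, 143 and 120.0 FPKM in Foxo1dd samples, against 157, 161 and 180.4 FPKM in Foxo1ff samples. Its groups did not overlap, but its log2 change of -0.34 ± 0.12 became -0.21 under median-of-ratios scaling and -0.18 under quantile normalization, and was then not called. It also lost its call without Foxo1dd sample 1 (-0.34), Foxo1dd sample 3 (-0.27), Foxo1ff sample 2 (-0.36) or Foxo1ff sample 3 (-0.28).

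All 8 listed subunits of oligosaccharyltransferase, the complex that transfers the N-glycan, fell, with a median log2 change of -1.66 and a range of -2.12 to -0.95. Ddost, a subunit both forms of the complex share, had 90.8, 73.5 and 93.8 FPKM in Foxo1dd samples, against 391.9, 391 and 346 FPKM in Foxo1ff samples, the largest log2 change of this step at -2.12 ± 0.13. Rpn1, a shared subunit that hands substrates to the enzyme, had 84.8, 49.4 and 79.5 FPKM in Foxo1dd samples, against 328, 281 and 249.5 FPKM in Foxo1ff samples. Foxo1dd sample 2 was the lowest of its group for both, and no value of one genotype reached the other. Ostc, which holds the STT3A form at the channel, had 76.0, 70.3 and 72.8 FPKM in Foxo1dd samples, against 277, 253 and 249 FPKM in Foxo1ff samples, a log2 change of -1.82 ± 0.11.

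Summed over the 8 genes, Foxo1dd epithelium kept 29.7% of the Foxo1ff FPKM. The catalytic subunits were Stt3a, which glycosylates during translocation, with a log2 change of -1.58 ± 0.17, and Stt3b, which acts on sites that were missed, with -1.25 ± 0.18. Stt3a made up 58.7 ± 0.08% of their summed FPKM in Foxo1dd samples and 64.0 ± 1.4% in Foxo1ff samples (SD, n = 3 each), without overlap. Of 25 other tested genes for building, transferring and trimming the glycan, 14 were lower and 2 higher, with a median log2 change of -0.64. Mogs, the glucosidase that removes the outermost glucose, had the largest change, -1.87 ± 0.16 on the log2 scale (limma adjusted p = 1.33e-05). Magt1, an oxidoreductase subunit of the STT3B form, and Alg8, a glucosyltransferase of glycan assembly, followed with log2 changes of -1.41 ± 0.20 and -1.37 ± 0.23. Of the other oligosaccharyltransferase subunits in that list, Tmem258 and Ost4 fell, with log2 changes of -0.83 ± 0.15 and -0.64 ± 0.10, and Tusc3 was not called, at -0.27 ± 0.13.

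The chaperones and folding enzymes had the largest median change of the 7 steps. All 17 fell, with a median log2 change of -2.01, 16 of them under -1 and 9 under -2. They made up the largest part of the summed level, at 2302 ± 397 FPKM in Foxo1dd samples and 8325 ± 1764 FPKM in Foxo1ff samples (SD, n = 3 each), which is 27.6% of the Foxo1ff level. In Foxo1ff epithelium Calr, Hsp90b1, Pdia3 and Hspa5 each averaged at least 1000 FPKM and stood among the 100 most abundant genes. None of the 57 genes did either in Foxo1dd epithelium, where 9 of them were among the 500 most abundant, compared with 28 in Foxo1ff epithelium.

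Calr, or calreticulin, a soluble lectin that holds glycoproteins during folding, had 451, 303 and 417 FPKM in Foxo1dd samples, against 2024, 1445 and 1281 FPKM in Foxo1ff samples. Its membrane-bound relative Canx, or calnexin, also fell, with log2 changes of -2.01 ± 0.21 for Calr and -1.95 ± 0.17 for Canx. Pdia3, the disulfide isomerase that works with both lectins, had 397, 302 and 315 FPKM in Foxo1dd samples, against 1179, 968 and 965 FPKM in Foxo1ff samples. Foxo1ff sample 1 was the highest library for all 3 genes, and the other 2 Foxo1ff samples were still far above every Foxo1dd sample.

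Hspa5 encodes BiP, the HSP70 chaperone of the ER, and is named here after its values were seen. It had 278, 162 and 218 FPKM in Foxo1dd samples, against 1405, 860.0 and 813 FPKM in Foxo1ff samples, a log2 change of -2.21 ± 0.25. Its nucleotide exchange factor Hyou1 had the same log2 change to 2 decimals, -2.21 ± 0.24. Its J-domain partners Dnajb9, Dnajb11 and Dnajc3 had smaller ones, at -1.47 ± 0.10, -1.34 ± 0.19 and -1.25 ± 0.22. Hsp90b1, the HSP90 chaperone of the ER known as GRP94, had 534, 371 and 563 FPKM in Foxo1dd samples, against 1643, 1032 and 949 FPKM in Foxo1ff samples, and a log2 change of -1.28 ± 0.23. It was second only to Sec23b in mean FPKM among the 57 genes in Foxo1dd epithelium, where Calr led in Foxo1ff epithelium. Exons of other annotated genes overlap Hsp90b1 on both strands, so reads could have been divided between them.

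The 3 largest changes were in Fkbp11, Sdf2l1 and Pdia6. Fkbp11, a peptidyl-prolyl isomerase abundant in secretory cells, had 3.92, 1.37 and 1.53 FPKM in Foxo1dd samples, against 111, 112 and 97.1 FPKM in Foxo1ff samples. This is a 46.9-fold lower mean and a log2 change of -5.12 ± 0.26, and the lowest library still held an estimated 274 reads of the gene. Sdf2l1, which works with the J-domain protein of Dnajb11 on BiP, had 16.0, 9.005 and 16.6 FPKM in Foxo1dd samples, against 272, 183 and 179 FPKM in Foxo1ff samples, a 15.2-fold lower mean. Pdia6, a disulfide isomerase that also binds BiP, had 99.8, 63.3 and 93.3 FPKM in Foxo1dd samples, against 713, 575 and 516 FPKM in Foxo1ff samples, a 7.04-fold lower mean. In each of the 3 the highest Foxo1dd sample was well under the lowest Foxo1ff sample.

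Relatives of these genes differed in how much of their level they kept, and those differences were not tested. Fkbp2, the other prolyl isomerase among the 57, kept 54.7% of its Foxo1ff level where Fkbp11 kept 2.13%. Among the disulfide isomerases, P4hb kept 38.8%, Pdia3 32.6%, Pdia4 20.7% and Pdia6 14.2%. Manf and Creld2, small ER proteins known to be induced by ER stress, kept 14.2% and 23.2%. Of 27 other tested folding genes, 18 were lower and 2 higher, with a median log2 change of -1.08. Pdia5, another disulfide isomerase, had 2.14, 0.777 and 2.17 FPKM in Foxo1dd samples, against 45.7, 42.6 and 38.4 FPKM in Foxo1ff samples, a log2 change of -4.05 ± 0.23 (limma adjusted p = 1.56e-06). Qsox1, a sulfhydryl oxidase, and Tmx4, a membrane thioredoxin-like protein, had log2 changes of -3.04 ± 0.30 (adjusted p = 3.78e-05) and -2.66 ± 0.20 (adjusted p = 8.1e-06).

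**Figure D2:**
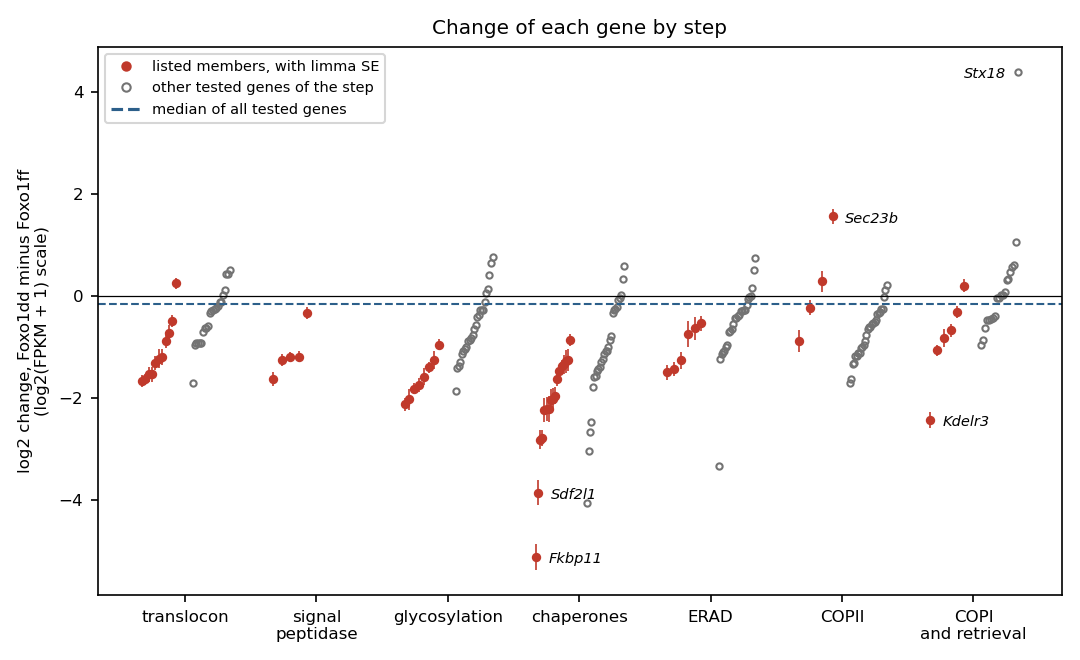
Log2 change of each gene (difference of Foxo1dd and Foxo1ff means of log2(FPKM + 1), so lower in Foxo1dd is negative) by step, with the 57 genes as red points with limma SE and other tested genes of the same step as open circles. The chaperones reach furthest down, to -5.12 for Fkbp11, while Sec23b at 1.56 is the single called rise among the 57 and Stx18 at 4.4 the largest among the others; the dashed line is the median of all tested genes, -0.15.

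In ERAD, which returns misfolded proteins to the cytosol for destruction, all 6 genes fell, with a median log2 change of -1.0. Edem1, a mannosidase-like protein that marks glycoproteins for removal, had 10.4, 9.70 and 10.2 FPKM in Foxo1dd samples, against 35.6, 29.6 and 26.0 FPKM in Foxo1ff samples. Herpud1, which organises the membrane ligase, had 16.95, 13.6 and 19.0 FPKM in Foxo1dd samples, against 49.0, 35.8 and 38.1 FPKM in Foxo1ff samples. Their log2 changes were -1.49 ± 0.14 and -1.26 ± 0.17, and neither gene's groups overlapped. Derl1, a derlin of the exit channel, had 38.1, 29.0 and 34.1 FPKM in Foxo1dd samples, against 88.6, 98.3 and 89.5 FPKM in Foxo1ff samples, a log2 change of -1.43 ± 0.13.

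The core of the ligase was the least certain. Syvn1, or HRD1, the ubiquitin ligase itself, had 22.7, 16.0 and 28.1 FPKM in Foxo1dd samples, against 53.4, 35.0 and 27.3 FPKM in Foxo1ff samples. Foxo1dd sample 3 lay above Foxo1ff sample 3, so the groups overlapped although the gene was called, with a log2 change of -0.74 ± 0.26. Sel1l, its partner, had a log2 change of -0.63 ± 0.22 without overlap. Without Foxo1ff sample 1 the changes were -0.49 for Syvn1 and -0.40 for Sel1l and neither was called, and both also lost their call under median-of-ratios scaling (-0.62 and -0.51) and quantile normalization (-0.60 and -0.49). Leaving out Foxo1dd sample 1, Foxo1dd sample 2 or Foxo1ff sample 2 ended both calls as well, with log2 changes of -0.79 to -0.53 for Syvn1 and -0.69 to -0.50 for Sel1l.

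Of 26 other tested ERAD genes, 16 were lower and 2 higher, with a median log2 change of -0.40. Derl3, a derlin typical of secretory cells, had 0.482, 1.18 and 0.840 FPKM in Foxo1dd samples, against 21.3, 16.9 and 13.9 FPKM in Foxo1ff samples, a log2 change of -3.32 ± 0.21 (limma adjusted p = 2.96e-06). Edem2, a mannosidase, and Selenos, a membrane selenoprotein that recruits the ATPase VCP, had log2 changes of -1.23 ± 0.13 and -1.14 ± 0.11.

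Of the 4 listed genes of the COPII coat, which buds vesicles from the ER, 1 rose, 1 fell and 2 were not called. Over all tested genes, 22.2% were called higher and 34.2% lower. Sec23b, an inner coat subunit that activates the coat's GTPase, had 526, 467 and 599 FPKM in Foxo1dd samples, against 211, 156 and 171 FPKM in Foxo1ff samples. It rose 2.96-fold, with a log2 change of 1.56 ± 0.15, and was the most abundant of the 57 genes in Foxo1dd epithelium. Sec31a, of the outer coat, had 40.4, 30.9 and 48.5 FPKM in Foxo1dd samples, against 95.6, 70.9 and 56.5 FPKM in Foxo1ff samples, and fell with a log2 change of -0.87 ± 0.22. The Foxo1dd values of Sec23b were all above those of Foxo1ff, and those of Sec31a all below.

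Sar1b, the GTPase that starts coat assembly, had 72.4, 70.1 and 59.4 FPKM in Foxo1dd samples, against 66.5, 82.2 and 88.4 FPKM in Foxo1ff samples, and was not called. Sec24d, which selects cargo, had 55.0, 32.7 and 50.8 FPKM in Foxo1dd samples, against 44.2, 35.2 and 31.4 FPKM in Foxo1ff samples, and was not called either. In both genes the groups overlapped. Without Foxo1dd sample 2 the log2 change of Sec24d was 0.52, against 0.29 ± 0.21 with all samples, and it was then called higher. The summed FPKM of the step was higher in Foxo1dd samples, at 684 ± 78.8 FPKM, than in Foxo1ff samples, at 369.6 ± 41.0 FPKM (SD, n = 3 each). Sec23b made up most of the first sum, with a mean of 531 ± 66.0 FPKM in Foxo1dd samples and 179 ± 28.2 FPKM in Foxo1ff samples (SD, n = 3 each). The means of Sec31a and Sar1b were lower in Foxo1dd samples, at 39.9 and 67.3 FPKM, than in Foxo1ff samples, at 74.3 and 79.0 FPKM. That of Sec24d was higher, at 46.2 FPKM in Foxo1dd samples and 36.9 FPKM in Foxo1ff samples.

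Outside the 57, 28 other tested genes of this step gave 21 lower and 0 higher calls, with a median log2 change of -0.63. They include further coat subunits beside genes of exit sites, cargo receptors and tethers. Ergic2, a protein of the ER-Golgi intermediate compartment, had the largest, -1.71 ± 0.14 on the log2 scale (limma adjusted p = 1.23e-05). The cargo receptors Lman1 and Tmed2 had log2 changes of -1.62 ± 0.18 (adjusted p = 6.68e-05) and -1.34 ± 0.12 (adjusted p = 1.66e-05). Sec23a, the paralogue of Sec23b, and the cargo adaptors Sec24b and Sec24c were not called. Their relatives Sec24a and Sar1a were called lower, with log2 changes of -0.65 ± 0.14 (adjusted p = 0.00316) and -0.52 ± 0.10 (adjusted p = 0.00252).

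In the retrieval step, 5 of 6 genes fell and 1 was not called, with a median log2 change of -0.75 and a range of -2.43 to 0.21. Kdelr3, one of the receptors that return KDEL-tagged residents such as BiP to the ER, had 4.44, 4.95 and 3.35 FPKM in Foxo1dd samples, against 27.4, 27.1 and 26.4 FPKM in Foxo1ff samples. Kdelr2 had 102, 91.7 and 90.5 FPKM in Foxo1dd samples, against 199, 205 and 193 FPKM in Foxo1ff samples. Kdelr1 had 172, 172 and 192 FPKM in Foxo1dd samples, against 241, 224 and 203 FPKM in Foxo1ff samples. The receptors were thus graded, with log2 changes of -2.43 ± 0.15, -1.06 ± 0.11 and -0.32 ± 0.12, the rarest changing most. The call on Kdelr1 was lost under median-of-ratios scaling (-0.19), under quantile normalization (-0.18) and without Foxo1dd sample 1 (-0.29), Foxo1dd sample 2 (-0.29), Foxo1ff sample 1 (-0.26) or Foxo1ff sample 2 (-0.31).

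The coat subunits of COPI had smaller log2 changes than Kdelr3 and Kdelr2. Copa had 77.4, 60.4 and 74.5 FPKM in Foxo1dd samples, against 161, 119 and 103 FPKM in Foxo1ff samples, and fell with a log2 change of -0.82 ± 0.18. Copb2 fell with a log2 change of -0.67 ± 0.13. Copb1 had 127, 105 and 115 FPKM in Foxo1dd samples, against 116, 94.3 and 90.8 FPKM in Foxo1ff samples, with overlapping groups and no call, although under median-of-ratios scaling (0.33) and quantile normalization (0.34) it was called higher. These 3 proteins are subunits of the same heptamer.

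Of 20 other tested COPI and retrieval genes, 8 (40%) were lower and 5 higher, where 34.2% and 22.2% of all tested genes were. The median log2 change of these 20 genes was -0.01. Under median-of-ratios scaling 5 were lower and 7 higher, with a median of 0.11. Stx18, a SNARE at which retrograde vesicles fuse with the ER, had 364, 518 and 351 FPKM in Foxo1dd samples, against 17.4, 16.4 and 21.1 FPKM in Foxo1ff samples. This was a 22.5-fold higher mean and a log2 change of 4.4 ± 0.17 (limma adjusted p = 2.55e-07), and exons of Gm42858 and Nsg1 overlap the gene on the other strand. Use1, a SNARE of the same complex, rose with a log2 change of 1.06 ± 0.14 (adjusted p = 0.000228), and Cope, a coatomer subunit, fell with one of -0.95 ± 0.11 (adjusted p = 0.000101).

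**Figure D3:**
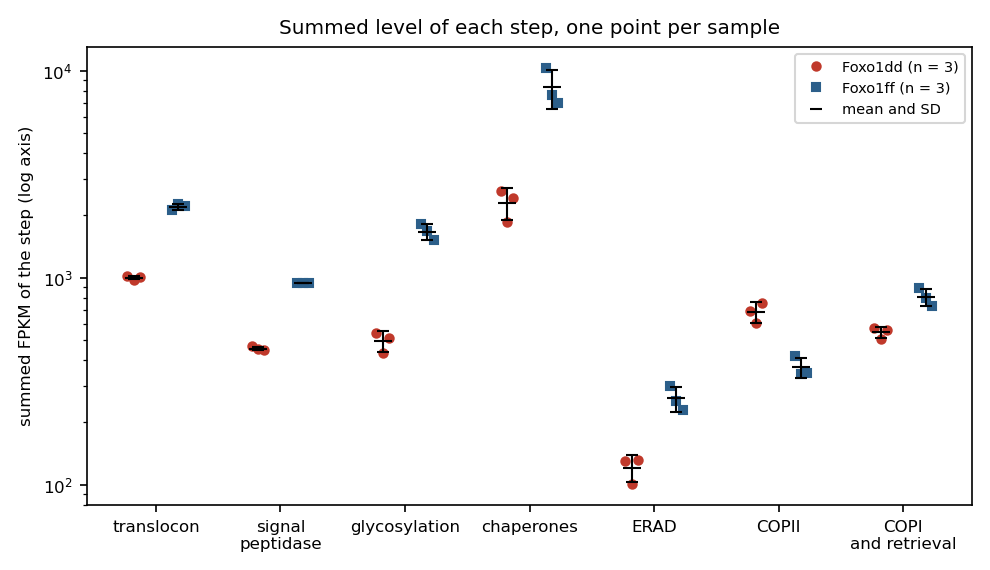
Summed FPKM of the listed genes of each step on a log axis, 1 point per sample, with mean and SD for Foxo1dd (red circles) and Foxo1ff (blue squares) samples (n = 3 each). Foxo1dd samples are lower in 6 steps, keeping between 27.6% (chaperones) and 67.6% (COPI and retrieval) of the Foxo1ff level, and higher in COPII, where Sec23b dominates.

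Where several paralogues serve 1 step, their shares overlapped between genotypes in some families and not in others. These shares are given as values, since an exact permutation test, with 3 samples in each genotype, has a smallest possible p of 0.1. Kdelr1 made up 64.3 ± 2.7% of the FPKM of the KDEL receptors in Foxo1dd samples and 49.6 ± 1.7% in Foxo1ff samples, without overlap (SD, n = 3 each). Kdelr3 made up 1.54 ± 0.34% in Foxo1dd samples and 6.01 ± 0.20% in Foxo1ff samples, also without overlap (SD, n = 3 each). Sec23b made up 97.7 ± 0.25% of the Sec23 pair in Foxo1dd samples and 91.7 ± 0.15% in Foxo1ff samples (SD, n = 3 each). Among the derlins, Derl2 made up 32.6 ± 0.98% in Foxo1dd samples and 18.4 ± 0.75% in Foxo1ff samples, Derl3 1.70 ± 0.90% in Foxo1dd samples and 12.9 ± 2.4% in Foxo1ff samples (SD, n = 3 each). Derl1 overlapped between genotypes, at 65.7 ± 1.0% in Foxo1dd samples and 68.7 ± 3.1% in Foxo1ff samples (SD, n = 3 each). The shares of Sar1a and Sar1b also overlapped.

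**Figure D4:**
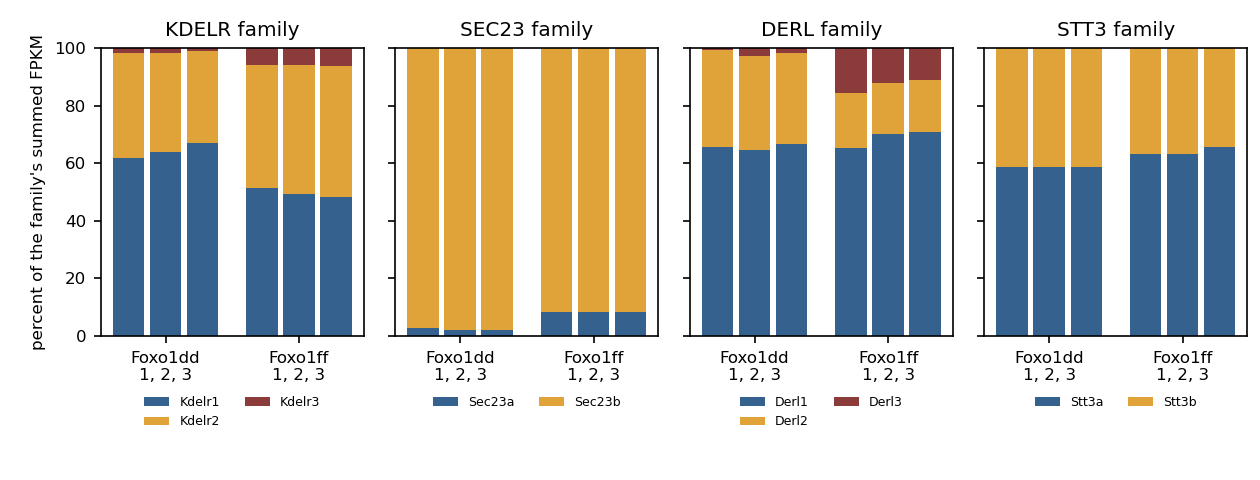
Share of each paralogue in the summed FPKM of its family, 1 bar per sample, Foxo1dd samples 1, 2 and 3 left of Foxo1ff samples 1, 2 and 3. Kdelr3 and Derl3 take smaller shares in the Foxo1dd bars (means of 1.54% and 1.70%) than in the Foxo1ff bars (6.01% and 12.9%), while Stt3a takes a mean of 58.7% in the Foxo1dd bars and 64.0% in the Foxo1ff bars.

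The regulators of the unfolded protein response, which are not among the 57, were also measured. Xbp1, whose spliced messenger encodes a main activator of ER chaperone and ERAD genes, had 129, 119 and 129 FPKM in Foxo1dd samples, against 994, 1116 and 1021 FPKM in Foxo1ff samples. It fell, with a log2 change of -3.04 ± 0.11 (limma adjusted p = 2.1e-07), and gene-level FPKM does not separate its spliced from its unspliced form. Ern1, or IRE1, the enzyme that splices it, fell with a log2 change of -1.65 ± 0.28 (adjusted p = 0.000896). Atf6, the membrane-bound activator, fell with -0.72 ± 0.17 (adjusted p = 0.00627) and Atf4, the effector of the kinase PERK, with -0.81 ± 0.13 (adjusted p = 0.000741). Ddit3, or CHOP, a target of the PERK branch, was not called, at 6.70 ± 0.736 FPKM in Foxo1dd samples and 5.68 ± 0.595 FPKM in Foxo1ff samples (SD). Of 12 such regulators tested, 7 were lower and 2 higher, where 34.2% and 22.2% of all tested genes were. The higher ones were the ATF6 relatives Creb3 and Creb3l1.

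Promoter sequences were searched for the elements through which this response is known to act, because they show which of the genes carry them. RefSeq promoters on GRCm38.p6, from 250 bases before to 50 after the start site, were at hand for 48 of the 57 genes. The ER stress response element (ERSE) was searched on both strands as CCAAT, any 9 bases and CCACG. It was found in 8 genes and in 14.3% of the 56 promoters of the listed genes, compared with 0.119% of 32851 mouse promoters. Many of the 57 genes are known targets of this response, so a larger share among them could be foreseen. This difference, and those for the other elements of the response below, therefore only describe the list. The matches are given 5′ to 3′ along the strand of the element, with CCAAT and CCACG in capitals.
Hspa5, chr2:34772025-34772043, plus strand: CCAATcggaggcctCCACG
Hsp90b1, chr10:86705638-86705656, minus strand: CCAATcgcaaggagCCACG
Hsp90b1, chr10:86705533-86705551, plus strand: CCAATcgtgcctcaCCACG
Calr, chr8:84847075-84847093, plus strand: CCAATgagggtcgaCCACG
Canx, chr11:50325800-50325818, minus strand: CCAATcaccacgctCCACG
Pdia6, chr12:17266491-17266509, plus strand: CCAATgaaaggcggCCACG
Creld2, chr15:88819520-88819538, minus strand: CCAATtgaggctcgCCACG
Dnajc3, chr14:118937827-118937845, plus strand: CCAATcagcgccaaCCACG
Syvn1, chr19:6046532-6046550, plus strand: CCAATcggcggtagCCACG

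Their first bases lay between 44 bases (Syvn1) and 212 bases (the farther of the pair in Hsp90b1) before the start site. Of the 8 genes, 7 are chaperones or folding factors and Syvn1 is the ERAD ligase. All 8 were called lower, with a median log2 change of -1.98. Over the 40 genes whose promoter had no match it was -1.21, and 35 of them were lower and 1 higher. These medians differ by step as well as by element, since the 17 chaperones together had a median of -2.01. Chaperones searched without a match ranged from -5.12 (Fkbp11) to -0.86 (Fkbp2), and Manf and Hyou1 had no promoter to search. The list was drawn up with these changes known, so the counts only describe it. Outside the list, 9 tested genes had the element, of which 4 were lower and 2 higher, with a median log2 change of -0.27. Over all tested genes, 34.2% were lower and 22.2% higher, with a median of -0.15.

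The shorter form, ERSE-II, was searched as ATTGG, any 1 base and CCACG, and was found in 3 genes and 5.36% of their promoters, compared with 0.0365% of all promoters. They are shown with ATTGG and CCACG in capitals.
Krtcap2, chr3:89246490-89246500, plus strand: ATTGGaCCACG
Dnajb11, chr16:22857852-22857862, plus strand: ATTGGcCCACG
Herpud1, chr8:94386377-94386387, plus strand: ATTGGgCCACG
The matches of Krtcap2 and Dnajb11 began 17 and 7 bases after the start site, and that of Herpud1 52 bases before it. Krtcap2 has another annotated start whose window held no match. All 3 genes fell, with a median log2 change of -1.34, where 34.2% of all tested genes were called lower. The core of the XBP1 element, TGACGTGG, was found in Sec24d, Copb1, Copb2 and Kdelr3, all coat or retrieval genes, which is 7.14% of the promoters of these genes and 0.676% of all promoters. Of those 4 genes 2 fell and 2 were not called. The forkhead core GTAAACA, searched because FOXO1 is a forkhead factor, occurred in 1 of the 48 genes searched, Copb1. This is 2.08% of them, compared with 4.05% of all genes with a promoter. A match is a string of letters and not a shown site of binding, and the absence of one says only that the letters are not in this window.

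The whole windows of 4 genes are printed to set the gene with a textbook element beside the largest fall and the single rise, with any ERSE or ERSE-II match in capitals and the rest in lower case. They run along the strand of each gene, at chr2:34771840-34772139 (plus) for Hspa5, chr8:94386179-94386478 (plus) for Herpud1, chr15:98727578-98727877 (minus, one of a pair of annotated starts) for Fkbp11 and chr2:144555979-144556278 (plus, likewise) for Sec23b.
Hspa5: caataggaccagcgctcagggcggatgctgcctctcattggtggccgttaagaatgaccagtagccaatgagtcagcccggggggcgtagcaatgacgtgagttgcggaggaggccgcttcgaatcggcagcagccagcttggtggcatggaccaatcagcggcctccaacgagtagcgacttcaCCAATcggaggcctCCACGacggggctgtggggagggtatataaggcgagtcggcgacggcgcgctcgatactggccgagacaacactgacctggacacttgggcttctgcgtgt
Herpud1: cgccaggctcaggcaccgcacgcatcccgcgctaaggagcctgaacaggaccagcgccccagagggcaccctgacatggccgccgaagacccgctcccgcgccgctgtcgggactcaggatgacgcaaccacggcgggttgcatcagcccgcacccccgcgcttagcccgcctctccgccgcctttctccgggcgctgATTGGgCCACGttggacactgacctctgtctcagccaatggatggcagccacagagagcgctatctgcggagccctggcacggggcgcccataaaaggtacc
Fkbp11: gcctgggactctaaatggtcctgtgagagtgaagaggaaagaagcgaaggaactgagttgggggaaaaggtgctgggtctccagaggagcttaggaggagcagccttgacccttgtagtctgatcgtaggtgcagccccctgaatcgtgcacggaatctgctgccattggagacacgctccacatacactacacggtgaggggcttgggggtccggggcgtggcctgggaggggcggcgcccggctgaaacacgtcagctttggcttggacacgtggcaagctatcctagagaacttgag
Sec23b: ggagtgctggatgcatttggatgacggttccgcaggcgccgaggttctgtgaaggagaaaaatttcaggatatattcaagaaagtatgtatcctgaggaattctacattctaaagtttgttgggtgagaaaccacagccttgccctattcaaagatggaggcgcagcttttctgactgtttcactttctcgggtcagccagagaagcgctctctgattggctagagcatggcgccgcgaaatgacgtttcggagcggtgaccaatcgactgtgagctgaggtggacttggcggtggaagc
Hspa5 and Herpud1 kept 21.4% and 40.3% of their Foxo1ff FPKM. Fkbp11, with 2.13%, held no match to the 4 elements at either start, and neither did Sec23b, which rose, or Sdf2l1, the second largest fall.

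Within each genotype the same library stood at an extreme for most chaperones. Foxo1dd sample 2 was the lowest of its group for 45 of the 57 genes, including 16 of 17 chaperones, where it was lowest for 56.5% of all tested genes. Foxo1ff sample 1 was the highest of its group for 40 of the 57, including 13 of 17 chaperones, where it was highest for 44.5% of all tested genes. Its FPKM divided by the mean of the other 2 Foxo1ff samples had a median of 1.34 over the chaperones and 1.03 over all tested genes, and reached 1.74 for Creld2, 1.73 for Hyou1 and 1.68 for Hspa5. At the other end were translocon genes, at 0.670 for Sec61g and 0.697 for Ssr4. The calls on all 17 chaperones held with any 1 library left out.

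Markers of other cell types were measured beside these genes, since gland and plasma cells are rich in this machinery. Of 8 gland markers, 5 could be tested, of which 3 were lower and 2 higher, and their summed FPKM was 7.32 to 27.9 in Foxo1dd samples and 53.2 to 214 in Foxo1ff samples. The gland product Spink1 had 0.307, 0.0640 and 0 FPKM in Foxo1dd samples, against 44.2, 57.2 and 178 FPKM in Foxo1ff samples, while the gland regulator Foxa2 did not exceed 1.36 FPKM in any library and Ttr was listed at 0 in all. Spink1 made up most of the Foxo1ff sum, and the other 7 gland markers summed to 7.26 to 27.6 FPKM in Foxo1dd samples and 4.15 to 35.4 FPKM in Foxo1ff samples, with overlap. Sox9 and Lif were the ones called higher, at 15.1 ± 8.35 and 3.02 ± 2.38 FPKM in Foxo1dd samples, against 1.90 ± 1.85 and 0.269 ± 0.122 FPKM in Foxo1ff samples (SD). Besides Spink1, the ones called lower were Prss28 and Prss29, each with all Foxo1dd samples below all Foxo1ff samples. They stood at 0.066 ± 0.114 and 0.278 ± 0.311 FPKM in Foxo1dd samples, against 5.62 ± 5.87 and 7.43 ± 8.86 FPKM in Foxo1ff samples (SD). Of 10 plasma cell markers, 6 were in the table and 2 could be tested, Mzb1 and Derl3, both of them lower, with a summed FPKM of 1.85 to 2.62 in Foxo1dd samples and 22.7 to 27.8 in Foxo1ff samples. Derl3 made up most of the Foxo1ff sum, at 17.4 ± 3.71 FPKM (SD), and is also counted with the ERAD genes above. This sum is therefore not independent of the ER genes. Of the defining plasma cell genes, Tnfrsf17 was listed at 0 in every library and Jchain did not exceed 0.075 FPKM. The part of gland RNA in the fall of the ER genes was not tested.

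Of 12 epithelial markers, 4 were higher (Krt8, Krt19, Cldn3 and Elf3) and 2 lower (Epcam and Cdh1), where 22.2% and 34.2% of all tested genes were. Epcam and Cdh1 had 393 ± 11.6 and 194 ± 25.2 FPKM in Foxo1dd samples, against 555 ± 50.1 and 289 ± 52.2 FPKM in Foxo1ff samples (SD). The summed FPKM of the 12 markers was 4478 to 5511 in Foxo1dd samples and 3193 to 4254 in Foxo1ff samples. Of 10 leukocyte markers, 7 could be tested, of which 5 were lower and 2 higher, with sums of 72.0 to 92.4 FPKM in Foxo1dd samples and 40.6 to 87.1 FPKM in Foxo1ff samples. Laptm5 carried most of the Foxo1dd sum, at 63.2 ± 8.97 FPKM, against 4.04 ± 1.57 FPKM in Foxo1ff samples (SD). It was called higher, as was Cd68, while Ptprc, Csf1r, C1qa, C1qb and Lyz2 were called lower. Lyz2 had 7.51 ± 2.08 FPKM in Foxo1dd samples and 43.5 ± 25.0 FPKM in Foxo1ff samples (SD). Ptprc, which encodes CD45, did not exceed 0.372 FPKM in Foxo1dd samples and reached 4.06 FPKM in Foxo1ff samples. Of 12 stromal markers, 9 could be tested, of which 2, Col3a1 and Nr2f2, were higher and 0 lower. Stromal sums were 38.6 to 56.5 FPKM in Foxo1dd samples and 36.4 to 40.8 FPKM in Foxo1ff samples, and endothelial sums 1.79 to 3.73 FPKM in Foxo1dd samples and 1.27 to 1.47 FPKM in Foxo1ff samples. The part of leukocyte RNA in the ER results was likewise not tested.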

How the data were processed

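RNA-seq of laser-captured uterine luminal epithelium was analysed in 3 Foxo1dd and 3 Foxo1ff samples, grouped by genotype label. The authors deposited FPKM values for 24964 genes. The submitters' processing notes name build mm10, STAR 2.5.2b, featureCounts 1.5.0-p1, edgeR 3.28.0 and DESeq2 1.12.4, without saying which did what. No annotation, gene length or strand setting is given in the sources used here, so reads of a gene and its antisense neighbour cannot be told apart. In GENCODE M21, 4 of the 57 genes (Hsp90b1, Manf, Pdia4 and Sec11a) share exonic bases with another gene on the same strand and 20 with one on the other strand.

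FPKM values are not counts, so log2(FPKM + 1) was tested with limma 3.58.1 in R 4.3.3 (lmFit, eBayes with a trend), with genotype as the only term, over the 11427 genes averaging at least 1 FPKM. A call is a Benjamini-Hochberg adjusted p under 0.05 over all of them. This scale understates changes of low genes. The step between low values of short RNA genes, whole to within 0.05 of a read for 88.5% to 100% of values, put 1 read of a 1 kb gene at 0.0118 to 0.0136 FPKM in Foxo1dd samples and 0.0102 to 0.0121 FPKM in Foxo1ff samples. Reads were estimated from it, and Foxo1dd sample 2 rests on 26 values.

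The 57 genes, the other lists, the tests and the alternatives were chosen with earlier results of these data known. Every-sample values are given for the 3 most abundant genes of a step and the 3 with the largest change, and other genes of a step are named for the 3 largest called changes. Foxo1, Pgr, Xbp1, Atf6, Ern1, Atf4 and Ddit3 were named by the same rule, and any other gene after its values were seen. Promoters and coordinates of matches come from RefSeq on GRCm38.p6, and protein sequences were not analysed here.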

Additional observations from a re-analysis of the deposited data

How the results depend on the processing

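Across the 798 results for single genes of the list under alternatives, 763 stayed on their side of the threshold, 30 lost their call and 5 gained one, and all 57 genes kept their direction in each. The lost calls were those of Spcs1, Kdelr1, Sel1l and Syvn1, and the gained ones those of Srp14, Copb1 and Sec24d, with values under the scalings and left-out samples in the report. With no filter on low values Sel1l (log2 change -0.63, limma adjusted p = 0.0856) and Syvn1 (-0.74, 0.0973) lost theirs, and under eBayes without a trend Spcs1 (-0.34, 0.0622) and Kdelr1 (-0.32, 0.071) did. Depth was estimated at 274 reads or more for each of the 57 genes in each library. Under median-of-ratios scaling 3 of the 57 genes were called higher (1 with all samples as deposited), of them 1 at the translocon and 1 in COPI and retrieval (0 each), and 5 other COPI and retrieval genes lower (8). Under quantile normalization these counts were 3, 1, 1 and 4. The cause was not tested. Leaving out each sample in turn gave 2134 to 2714 higher and 3050 to 3751 lower calls over all genes. For the 57 genes it gave 1 to 2 higher and 48 to 51 lower calls, and for COPII 1 to 2 higher. For other genes it gave 3 to 8 lower calls in COPI and retrieval, and 1 to 3 higher at the translocon, 1 to 2 among chaperones and 1 to 2 in ERAD. Of these, the lower calls of other COPI and retrieval genes numbered 4 without Foxo1dd sample 2 or Foxo1ff sample 1 and 3 without Foxo1ff sample 2, and COPII had 2 higher calls without Foxo1dd sample 2. The higher calls of other genes numbered 1 at the translocon without Foxo1ff sample 1, 1 among chaperones without Foxo1dd sample 1 or Foxo1ff sample 2, and 1 in ERAD without Foxo1ff sample 2. The labels do not say whether bioreplicate numbers pair the samples across genotypes. Deviations of samples with the same number correlated at 0.12, 0.11 and -0.13, and 2 of 6 samples correlated best with their own number. So few samples cannot settle whether they were paired. With the number as a replicate block, 1 other chaperone gene was called higher (2 without it), Spcs1 and Kdelr1 lost their call, and 50 of the 57 genes were lower.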

Other observations

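Among the 149 other tested genes of these steps, 89 were called lower and 14 higher in Foxo1dd samples, where 34.2% and 22.2% of all tested genes were. The higher ones below were named after their values were seen. Besides Stx18 and Use1 the 14 had log2 changes of 0.34 to 0.76. Copg2, a coatomer subunit, had 23.3, 19.2 and 24.1 FPKM in Foxo1dd samples, against 14.2, 13.5 and 14.6 FPKM in Foxo1ff samples, a log2 change of 0.62 ± 0.13 (limma Benjamini-Hochberg adjusted p = 0.00378). Mpdu1, needed for the use of dolichol-linked mannose, rose with a log2 change of 0.76 ± 0.12, and Fam8a1, a cofactor of the ligase HRD1, with 0.76 ± 0.15. Txndc12, a thioredoxin-like folding protein, rose with 0.60 ± 0.11. Of the unfolded protein response regulators, Eif2ak3, which encodes the kinase PERK, had 7.64, 6.54 and 7.10 FPKM in Foxo1dd samples, against 29.4, 26.7 and 23.2 FPKM in Foxo1ff samples, a log2 change of -1.76 ± 0.14 (limma adjusted p = 1.08e-05).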
